A study of Mus musculus with 2 samples.

Results

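The genes described here encode the proteins that carry calcium across the sarcolemma, the surface membrane of the heart muscle cell. They were chosen by symbol and are 9 of the 55536 mouse genes in the deposited tables. Cacna1c and Cacna1d encode the pores of L-type calcium channels, and Cacna1g and Cacna1h encode the pores of T-type channels. Cacnb2 and Cacna2d1 encode the auxiliary beta and alpha2delta subunits. Slc8a1 encodes the sodium/calcium exchanger NCX1, and Atp2b1 and Atp2b4 encode plasma membrane calcium pumps. The deposited tables list 118 transcripts of these genes.

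The study sequenced total RNA of whole hearts taken at an age of 4 days from male B6CASTF1/J mice, which are F1 hybrids of C57BL/6J and CAST/EiJ. It holds 2 libraries, labelled biological replicates 1 and 2 and called heart 1 and heart 2 here, each made from 300 ng of RNA. Both belong to 1 group, with no treatment and no second genotype, so the comparisons are between genes, between transcripts of a gene and between the 2 hearts. The replicates carry different animal numbers but the same donor record, so the spread between them may be technical in part.

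When the membrane depolarises, L-type channels open and the entering calcium triggers release from the sarcoplasmic reticulum, which drives contraction. T-type channels open at more negative voltages and are known from the embryonic heart and from pacemaker and conduction tissue. The exchanger removes most of the calcium that entered during a beat by trading it for sodium, and the pumps remove a smaller part using ATP.

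Mouse-gene counts were 31512596 in heart 1 and 35744013 in heart 2. All 6 cardiomyocyte markers, 7 of 7 smooth muscle and pericyte markers, 5 of 5 endothelial markers and 5 of 5 fibroblast markers were expressed, meaning that TPM reached 1 or more in each heart. None of 4 neuron and Schwann cell markers and none of 4 skeletal muscle markers met that threshold. Of the markers of conduction tissue, 6 of 10 did, and Cacna1d and Cacna1g are themselves on that list. The summed TPM of red cell markers was 940 in heart 1 and 3554 in heart 2, that of fibroblast markers 921 and 1287, and that of smooth muscle and pericyte markers 529 and 827. The cardiomyocyte sum ran the other way, from 15089 to 12509. In a whole heart, fewer cells of a type and less RNA per cell cannot be told apart.

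Transcripts of Cacna1c and Cacna1d differ by alternative exons of equal length. The sequences of those exons are shown first because some of the transcript results for these genes are given by exon. Each is written 5′ to 3′ on the strand of the gene in mm10, read from the GENCODE M21 transcripts, and capitals mark the positions at which both exons of a pair differ. The 104-nt pair of Cacna1c encodes the end of the first of the channel's repeats. Its exons are identical at 72 positions (69.2%), and none of the 22 full-length coding transcripts carries both.
Cacna1c 104-nt upstream exon, chr6:118742265-118742368, minus strand: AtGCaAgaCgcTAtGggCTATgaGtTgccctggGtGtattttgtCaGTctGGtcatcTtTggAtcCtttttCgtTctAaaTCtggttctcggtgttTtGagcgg
Cacna1c 104-nt downstream exon, chr6:118741871-118741974, minus strand: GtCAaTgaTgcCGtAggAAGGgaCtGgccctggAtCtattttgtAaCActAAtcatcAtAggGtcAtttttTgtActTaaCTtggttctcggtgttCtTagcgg

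Cacna1d has a pair of the same length at the matching place. Its exons are identical at 82 positions (78.8%), and none of its 5 full-length coding transcripts carries both.
Cacna1d 104-nt upstream exon, chr14:30171956-30172059, minus strand: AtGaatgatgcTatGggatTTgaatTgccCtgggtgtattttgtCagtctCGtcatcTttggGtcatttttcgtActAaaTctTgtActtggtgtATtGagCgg
Cacna1d 104-nt downstream exon, chr14:30171296-30171399, minus strand: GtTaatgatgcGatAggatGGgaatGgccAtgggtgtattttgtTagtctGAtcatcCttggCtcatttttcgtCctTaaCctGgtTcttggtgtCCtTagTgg

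Cacna1c has 2 further pairs, of 60 and 84 nt, each identical at 58.3% of positions. They are shown because, unlike the 104-nt pair, their members were used at similar levels.
Cacna1c 60-nt upstream exon, chr6:118674555-118674614, minus strand: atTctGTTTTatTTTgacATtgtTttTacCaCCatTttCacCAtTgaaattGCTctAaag
Cacna1c 60-nt downstream exon, chr6:118674346-118674405, minus strand: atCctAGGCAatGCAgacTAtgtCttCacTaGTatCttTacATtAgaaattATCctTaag
Cacna1c 84-nt upstream exon, chr6:118638427-118638510, minus strand: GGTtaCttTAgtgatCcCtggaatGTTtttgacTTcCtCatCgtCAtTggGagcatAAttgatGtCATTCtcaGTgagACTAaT
Cacna1c 84-nt downstream exon, chr6:118637730-118637813, minus strand: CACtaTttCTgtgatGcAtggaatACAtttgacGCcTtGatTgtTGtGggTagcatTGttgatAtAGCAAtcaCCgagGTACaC

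All 9 genes were expressed in both hearts, against 23.8% of all mouse genes and 54.0% of protein-coding genes. Their TPM summed to 694.45 in heart 1 and 676.22 in heart 2. Slc8a1 gave the largest part of that sum, and Cacna1d the smallest. The levels below are TPM of the whole gene, which is scaled per transcript length and to the library, with the mean ± SD over 2 hearts.

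**Figure D1:**
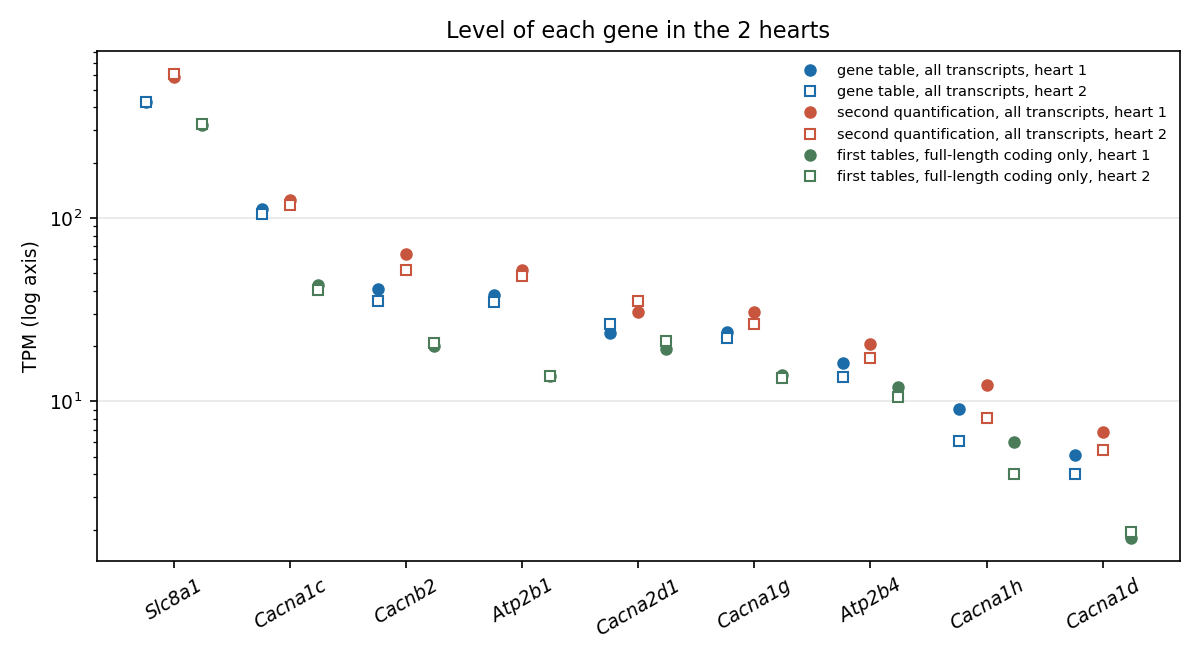
TPM of each gene in each heart, on a log axis. Blue marks give the gene table, red marks a second quantification of the same libraries, and green marks the full-length coding transcripts of the first tables. Filled circles are heart 1 and open squares heart 2. Slc8a1 lies near 427 TPM and Cacna1d near 4.55, and the blue and red marks put the genes in the same order.

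Cacna1c (chromosome 6, 118587240 to 119196418, minus strand), the main L-type pore of working heart muscle, had a TPM of 112 in heart 1 and 104.6 in heart 2, or 108.3 ± 5.22. It drew 11940 and 13565 expected counts. Cacna1d (chromosome 14, 30039939 to 30491455, minus strand), the L-type pore known from sinoatrial and atrial cells, had 5.08 and 4.01 TPM, or 4.55 ± 0.757. Cacna1c was the higher in both hearts, by 4.55 ± 0.17 on the log2 scale, a 23.5-fold difference (TPM plus a pseudocount of 0.1). Leaving 1 heart or the other out gave 4.44 and 4.67. Cacna1d rested on 530 and 607 counts, the fewest of the 9 genes. The overlapping Dcp1a gene on the opposite strand held 864 and 916 counts, and the labels describe the libraries as stranded.

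Among the T-type pores, Cacna1g (chromosome 11, 94408391 to 94474198, minus strand) had 23.98 and 22.16 TPM, or 23.1 ± 1.29. Cacna1h (chromosome 17, 25374285 to 25433783, minus strand) had 9.05 and 6.07 TPM, or 7.56 ± 2.11. Cacna1g was the higher T-type gene in both hearts, by 3.08-fold, a log2 ratio of Cacna1h over Cacna1g of -1.62 ± 0.32. Cacna1g also stood above the L-type gene Cacna1d in both hearts.

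Cacnb2 (chromosome 2, 14603088 to 14987908, plus strand), the beta subunit that brings the L-type pore to the membrane and shapes its gating, had 41.18 and 35.42 TPM, or 38.3 ± 4.07. Cacna2d1 (chromosome 5, 15934691 to 16374511, plus strand), an extracellular subunit that raises surface expression of the channel, had 23.67 and 26.26 TPM, or 24.97 ± 1.83. Both lay under their pore partner in each heart. Cacna1c exceeded Cacnb2 by 1.44 on the log2 scale in heart 1 and 1.56 in heart 2, or 2.83-fold, and Cacna2d1 by 4.33-fold. These ratios are of RNA and say nothing of subunit proteins.

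Slc8a1 (chromosome 17, 81373105 to 81738377, minus strand) had 425.49 and 429.38 TPM, or 427.4 ± 2.75, from 49966 and 61256 counts. It ranked 126 of 21938 nuclear protein-coding genes, and Cacna1c ranked 627. The exchanger stood above Cacna1c by 1.98 ± 0.08 on the log2 scale. The deposited bounds of the Slc8a1 TPM, 408.9 to 419.8 in heart 1 and 415 to 425.2 in heart 2, did not hold the deposited TPM itself, whereas those of the other 8 genes did. The Slc8a1 bounds did hold the posterior mean TPM that was also deposited, 414.35 in heart 1 and 420.07 in heart 2.

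Atp2b1 (chromosome 10, 98914406 to 99026143, plus strand), the pump found in most tissues, had 37.77 and 34.69 TPM, or 36.2 ± 2.18. Atp2b4 (chromosome 1, 133699457 to 133801041, minus strand), a pump known from caveolae and signalling complexes, had 16.22 and 13.60 TPM, or 14.9 ± 1.85. Atp2b1 was the higher pump in both hearts by 1.28 ± 0.09 on the log2 scale. The exchanger exceeded Atp2b1 by 3.56 ± 0.10, an 11.8-fold difference.

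The order from high to low was therefore Slc8a1, Cacna1c, Cacnb2, Atp2b1, Cacna2d1, Cacna1g, Atp2b4, Cacna1h and Cacna1d, and the second quantification gave the same order. Over full-length coding transcripts alone, described further on, Cacna2d1 came above Atp2b1. Most neighbours did not overlap between hearts. Cacnb2 and Atp2b1 overlapped, although Cacnb2 was higher in 2 of 2 hearts, and Cacna2d1 and Cacna1g overlapped, with Cacna2d1 higher in 1 of 2. An exact two-sided sign-flip test on 2 hearts cannot go below p = 0.5, so that test was not run.

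A gene's TPM sums transcripts typed as protein-coding, some of them annotated only in part, and transcripts of other types. Transcripts were called full-length coding when the annotation types them as protein-coding, tags no end as incomplete, and gives a coding sequence of at least 50% of the longest in that gene. Of the 118 transcripts, 62 met this. By TPM they carried 81.0% ± 0.03 of Cacna2d1, 75.6% ± 2.90 of Atp2b4, 75.2% ± 0.07 of Slc8a1 and 66.1% ± 0.03 of Cacna1h. They carried 59.2% ± 1.59 of Cacna1g, 53.7% ± 6.90 of Cacnb2, 41.9% ± 9.20 of Cacna1d, 38.5% ± 0.13 of Cacna1c and 38.1% ± 2.30 of Atp2b1. The remainder is not all non-coding. With partial forms included, protein-coding transcripts carried 91.0% of Atp2b1 TPM and 100% of Slc8a1 TPM. For Cacna1c, Cacna1d, Cacna1g and Atp2b4, including them left the mean share unchanged. By expected counts the lowest share was 65.4%, in Cacnb2, since short transcripts draw few counts for the same TPM. The difference between scales was greatest in Cacna1c, at 38.5% of TPM and 81.8% of counts.

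**Figure D2:**
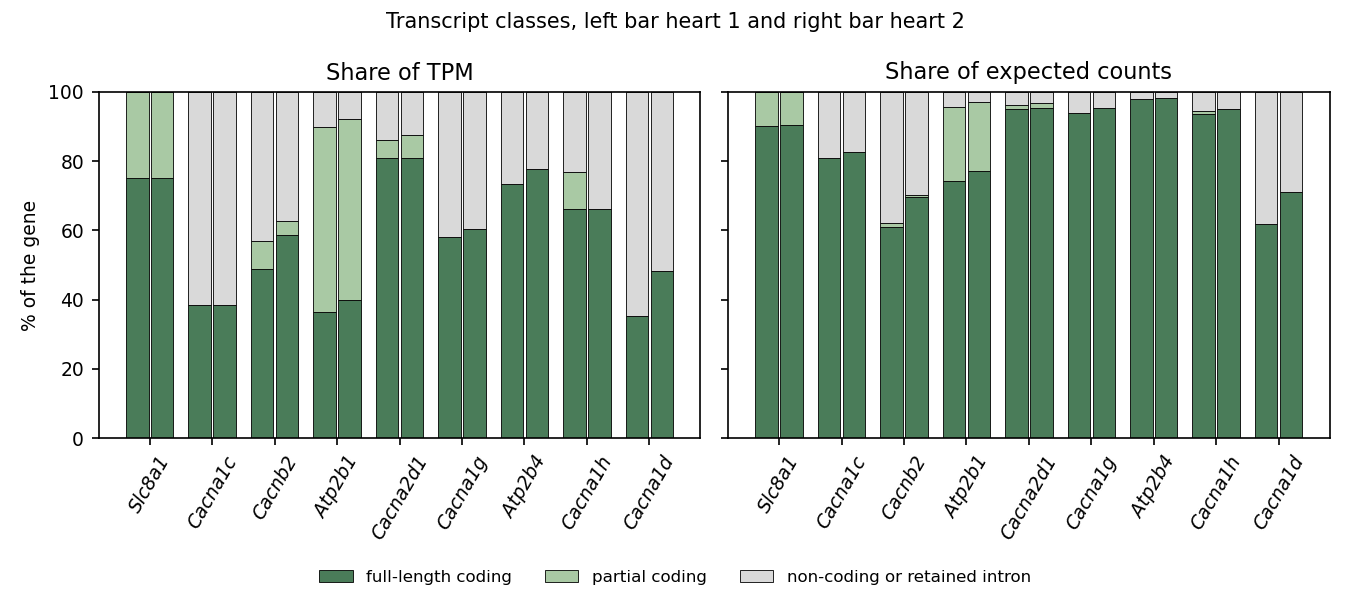
Share of each gene, in %, by TPM on the left and by expected counts on the right. Dark green is full-length coding transcripts and light green other protein-coding transcripts. Grey, labelled non-coding or retained intron, is every other type. It includes transcripts typed as nonsense-mediated decay, such as Cacna1d-208 with 12.2% of Cacna1d counts. Left bars are heart 1 and right bars heart 2. Cacna1c and Cacna1d have the largest grey share of TPM, and by counts most of Cacna1c is dark green.

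Counting only full-length coding transcripts changed some of the relations above. Cacna1c stood at 41.7 ± 1.87 TPM, Cacnb2 at 20.4 ± 0.45 and Cacna2d1 at 20.2 ± 1.47, so the pore exceeded each auxiliary subunit by about 1 on the log2 scale (1.03 and 1.04). Atp2b1 was then at 13.8 TPM in both hearts and Atp2b4 at 11.2 ± 0.97, which gave a log2 ratio of 0.30 in place of 1.28. Most of the Atp2b1 TPM left out was on transcripts typed as protein-coding but annotated in part. Slc8a1 kept 321.3 ± 2.37 TPM, and its log2 ratio over Cacna1c was 2.94 in place of 1.98. The L-type and T-type pairs kept their directions, at 4.41 for Cacna1c over Cacna1d and -1.46 for Cacna1h over Cacna1g.

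The transcript with the most TPM in Cacna1c was Cacna1c-218, a non-coding processed transcript of 954 nt in 4 exons. It held 49.13 TPM in heart 1 and 48.10 in heart 2, which was 44.9% ± 1.49 of the gene by TPM, 35.2% in the second quantification and 8.64% of the expected counts. It begins at 119196409, within the same start region as the most used coding transcripts. Its middle exons, of 322 and 106 nt, are shared with 17 of the 22 full-length coding transcripts. Its last exon, chromosome 6 from 118946163 to 118946371, is 209 nt long and is in none of them. A further non-coding transcript, Cacna1c-211, held 7.20% of TPM. Of the coding transcripts, Cacna1c-207 held 13.98% ± 2.04 of TPM and 41.1% of counts, and Cacna1c-212 held 12.0% ± 1.74 and 20.0%.

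Cacna1c is known to start from a distal first exon, typical of heart, and from a proximal one, typical of smooth muscle and brain. Annotated starts within 1000 nt of each other were joined into regions, which gave 5 for Cacna1c. The distal region, with 4 full-length coding transcripts starting between 119196231 and 119196418, held 67.0% of full-length coding TPM in heart 1 and 67.8% in heart 2. The proximal region, with 12 transcripts starting between 119107975 and 119108573, held 23.1% and 24.5%. The other 3 regions each had a mean of at most 3.11%. In the second quantification the distal share was lower, at 56.3% and 58.4%, and the proximal share higher, at 33.5% and 32.2%, so the order held in both hearts and both quantifications.

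The bases just before those starts are shown because they differ in composition. They come from the RefSeq promoter windows of GRCm38.p6 (250 bases before to 50 after a RefSeq start), limited to bases upstream of annotated exons. Capitals mark matches, on either strand, to any of 4 short motifs, whose letters and general frequency are given after the sequences.
Cacna1c distal start, chr6:119196419-119196659, minus strand: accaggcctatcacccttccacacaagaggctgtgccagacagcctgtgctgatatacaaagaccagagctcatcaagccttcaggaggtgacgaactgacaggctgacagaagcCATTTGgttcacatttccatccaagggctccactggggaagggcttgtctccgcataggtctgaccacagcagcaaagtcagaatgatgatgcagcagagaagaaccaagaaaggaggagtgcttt
Cacna1c proximal start, chr6:119108574-119108745, minus strand: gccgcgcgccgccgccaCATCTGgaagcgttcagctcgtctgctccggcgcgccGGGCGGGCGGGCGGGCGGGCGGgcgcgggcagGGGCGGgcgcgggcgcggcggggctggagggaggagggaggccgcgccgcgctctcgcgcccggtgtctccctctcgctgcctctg

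The distal window was 51.3% G and C with 3 CpG pairs, an observed over expected CpG ratio of 0.15, and no match to the GC box. The proximal window was 81.3% G and C with 57 CpG pairs, a ratio of 1.16, and 6 overlapping or separate matches to GGGCGG. Over all 32817 windows the median ratio was 0.38. The GC box, GGGCGG, was in 35.6% of these windows. The letters TATAAA were in 13.6% of them. The E-box, CANNTG, was in 72.3% of them. The GATA motif, searched as GATAA, was in 25.4% of them. The more used start of Cacna1c in these hearts was thus the one with few CpG pairs. A match is a string of letters and does not show that a factor binds.

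At the 104-nt pair, the upstream exon was in 79.1% of full-length coding Cacna1c TPM in heart 1 and 79.9% in heart 2, and the downstream exon in 20.9% and 20.1%. The second quantification gave 71.8% ± 1.87 and 28.2% ± 1.87. The other pairs were close to even. The 60-nt upstream exon was in 47.5% and 40.6% and its downstream alternative in 51.1% and 58.1%. The 84-nt upstream exon was in 46.6% and 52.7% and its alternative in 54.8% and 49.0%, so which of them led differed between the hearts. The annotation has 2 full-length coding transcripts with both 60-nt exons and 3 with both 84-nt exons, so the shares of these pairs need not sum to the whole. A 75-nt cassette exon at 118715903 to 118715977 was in 19.5% and 18.4%. Each of these shares sums the TPM of whole annotated transcripts and is not a count of reads on the exon. Cacna1c-207 (13162 nt) had 14.04 TPM in heart 1 and 16.14 in heart 2, and Cacna1c-212 (7507 nt) had 14.78 and 11.23. Both have 6507 coding nt, so reads outside the coding part can move the exon shares. That was not tested.

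**Figure D3:**
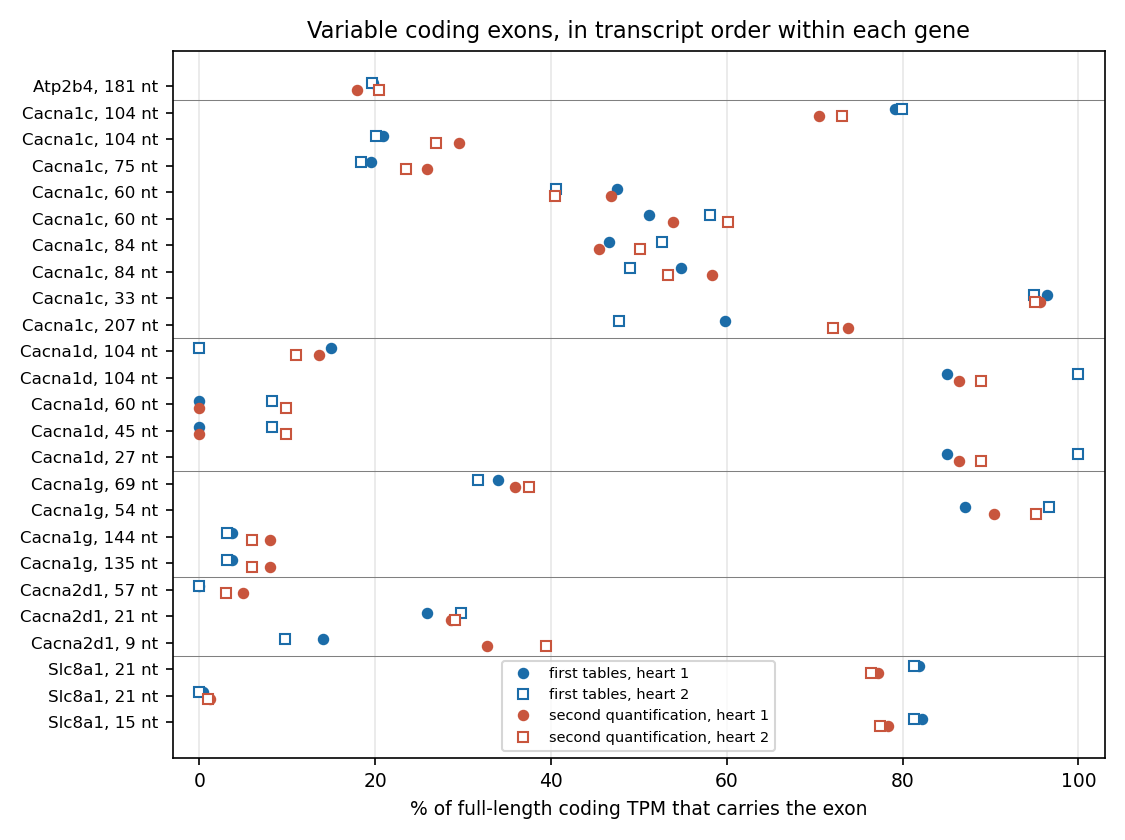
Share of full-length coding TPM, in %, that carries each variable coding exon, listed in transcript order within each gene with its length. The share is over the full-length coding transcripts that have exons on both sides of it and either keep or skip it. Transcripts with an overlapping exon of another length are left out. For the 207-nt Cacna1c exon, 2 transcripts with it are set against 4 without. Another 16 carry the overlapping 33-nt exon, so the 207-nt mark is not a share of all full-length coding Cacna1c. Blue marks give the first tables, red marks the second quantification, filled circles heart 1 and open squares heart 2. The upstream 104-nt exon leads in Cacna1c and the downstream one in Cacna1d.

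Cacna1d used the matching pair the other way. Its downstream 104-nt exon was in 85% of full-length coding TPM in heart 1 and 100% in heart 2, and in 86.4% and 89.0% in the second quantification. Those shares rest on a full-length coding level of 1.80 and 1.94 TPM. The leading transcript by mean TPM was Cacna1d-205, a retained-intron form of 1223 nt with 27.6% ± 2.99 of TPM but 6.60% of counts. In heart 2 the coding transcript Cacna1d-202 led instead, with 29.7% against 25.4%. Its mean share was 22.2%, and that of Cacna1d-204 was 15.0%. The upstream of the 2 start regions of Cacna1d held 41.7% and 61.3% of full-length coding TPM, so the leading region differed between hearts. In the second quantification it held 30.8% and 49.4%, under the downstream region in both hearts.

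Cacna1g split its TPM over many forms. Cacna1g-208 led with 23.8% ± 7.52, followed by the coding Cacna1g-203 with 13.6%. The short non-coding transcripts Cacna1g-212, Cacna1g-213 and Cacna1g-214 held 11.3%, 11.0% and 11.0% of TPM, and together a small part of the counts. In the second quantification Cacna1g-201 had the highest mean, 17.8%, but led in neither heart. Cacna1g-212 led in heart 1 with 19.0% and Cacna1g-203 in heart 2 with 18.8%, and Cacna1g-213 was listed at 0. All 11 full-length coding transcripts started in 1 region. A 54-nt exon was in 87.1% and 96.7% of full-length coding TPM and a 69-nt exon in 34.0% and 31.7%.

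Cacna1h was led by Cacna1h-205, with 66.1% of TPM in heart 1 and 60.4% in heart 2. The second quantification divided the hearts. It placed 30.9% there in heart 1 and 9.52% in heart 2, and 27.2% and 47.2% on Cacna1h-201, which the first tables list at 0. These forms share a coding length of 7077 nt and differ in length by 8230 against 8220 nt, so the choice between them does not move the amount assigned to full-length coding RNA. That amount was 66.1% by the first tables and 61.9% by the second.

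Cacnb2 is known for alternative first exons that give the beta2 protein different N-termini. Cacnb2-203, from the first start region (14604306), led with 32.4% of TPM in heart 1 and 44.5% in heart 2. The quantifications differed on the next form. Cacnb2-214, from the second region (14824092), held 15.2% ± 1.61 of TPM in the first tables and 0.033% in the second. Cacnb2-202, from the third region (14873669), was listed at 0 in the first tables and held 20.2% in the second. Both are 2117 nt long. Of full-length coding TPM, the first region held 66.5% and 76.0%, and 55.7% and 63.1% in the second quantification, so it led in both hearts either way. The retained-intron form Cacnb2-215 held 14.4% of TPM, and Cacnb2-216, a coding fragment of 503 nt, held 6.22% in the first tables and 13.3% in the second.

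The bases upstream of the first and second Cacnb2 starts are shown for the same contrast in composition, with the same capitals.
Cacnb2 first start, chr2:14604056-14604305, plus strand: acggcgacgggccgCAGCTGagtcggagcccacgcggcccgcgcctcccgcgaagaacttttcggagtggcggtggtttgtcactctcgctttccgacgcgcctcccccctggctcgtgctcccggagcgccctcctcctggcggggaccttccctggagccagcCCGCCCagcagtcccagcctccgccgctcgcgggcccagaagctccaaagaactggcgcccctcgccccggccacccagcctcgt
Cacnb2 second start, chr2:14823842-14824091, plus strand: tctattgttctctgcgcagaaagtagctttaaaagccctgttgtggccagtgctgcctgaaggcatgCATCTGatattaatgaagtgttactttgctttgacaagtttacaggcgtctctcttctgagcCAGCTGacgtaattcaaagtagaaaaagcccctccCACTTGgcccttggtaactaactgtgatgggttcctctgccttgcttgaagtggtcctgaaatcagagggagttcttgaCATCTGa

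The first window was 71.7% G and C with a CpG ratio of 0.94 and 1 GC box. The second was 44% G and C with a ratio of 0.28, no GC box and 4 E-boxes. For Cacnb2 the more used of these 2 starts was the one rich in CpG pairs, the reverse of Cacna1c. In the second quantification the second start held a mean of 0.0587% of full-length coding TPM and the third 40.5%. No window of the third start is shown, so the contrast leaves it out.

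Cacna2d1 was led by Cacna2d1-202, with 48.6% and 49.0% of TPM, followed by Cacna2d1-206 with 22.6% ± 2.15. In the second quantification Cacna2d1-202 held 27.2% in heart 1 and 19.9% in heart 2, and Cacna2d1-205 held 26.4% and 32.0%, so the leader differed between hearts. The first tables gave Cacna2d1-205 a mean of 9.65%. All 7 full-length coding transcripts started in 1 region. The form Cacna2d1-205 carries a 9-nt exon that was in 14.1% and 9.74% of full-length coding TPM in the first tables and 32.7% and 39.4% in the second. A 21-nt cassette exon was in 26.0% and 29.7%, and its mean share differed little between quantifications, at 27.8% and 28.9%.

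Slc8a1 has a large coding exon of 1830 nt (chromosome 17, 81647809 to 81649638) that all 6 annotated transcripts reach, and a set of short exons that encode part of the regulatory loop. The large exon is known as the source of an abundant circular RNA. The tables hold no back-splice junctions, so linear and circular RNA from it cannot be told apart here. Slc8a1-205, a 2017-nt transcript with an incomplete end that stops in that exon, held 105.89 TPM in heart 1 and 106.43 in heart 2. That was 24.8% ± 0.07 of the gene, and 42.9% in the second quantification, where it led.

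The full-length forms were divided differently by length and by method. Slc8a1-202, of 3180 nt, led by TPM with 39.4% and 46.0%, but held 7.13% in the second quantification. Slc8a1-201 held 5.29% in the first tables and 23.6% in the second. Slc8a1-204, of 18464 nt, held 13.7% ± 0.51 of TPM and 51.4% of the expected counts, with a mean of 28634 counts on this 1 long transcript. Slc8a1-206 held 13.3% ± 2.10. The upstream start region (81738377) held 72.2% and 76.9% of full-length coding TPM in the first tables but 35.3% and 35.6% in the second, and the other region led there. That other region (81649607 to 81649608) lies inside the large coding exon. Of that exon's 1830 nt, 1799 are coding, and the region lies at the annotated start of this coding part. Its transcripts are thus annotated with almost no bases before the coding sequence. Whether RNA truly starts there was not tested, so the shift need not be one of start use.

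**Figure D4:**
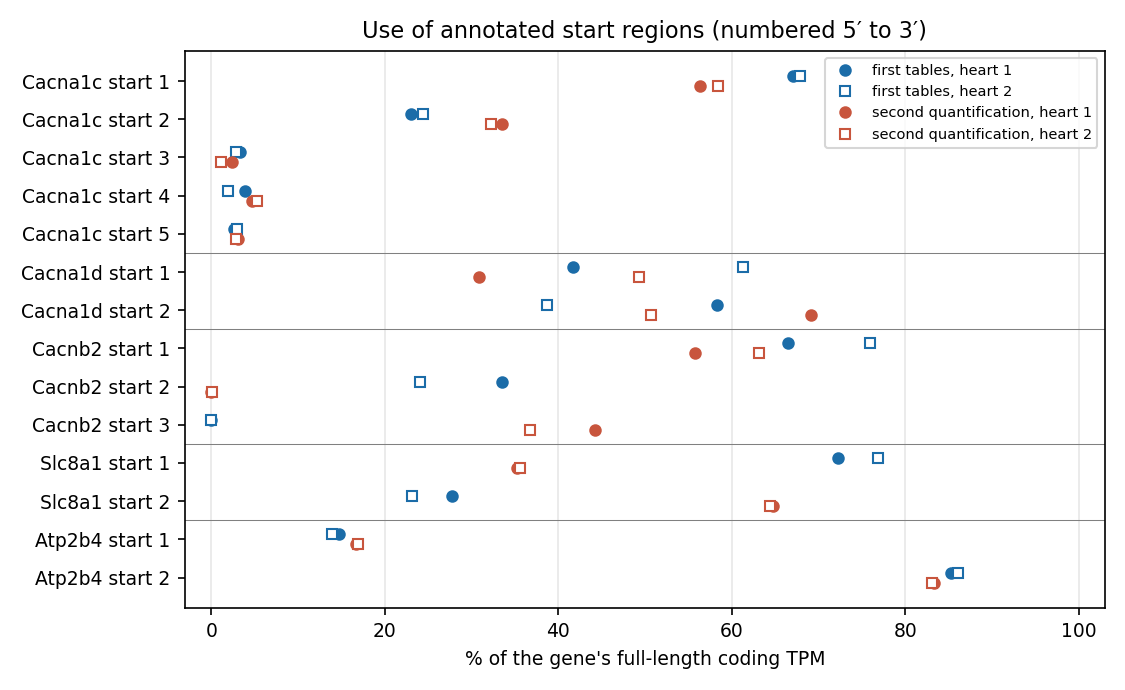
Share of full-length coding TPM, in %, from each annotated start region of the genes with more than 1 region, numbered 5′ to 3′. Blue marks give the first tables, red marks the second quantification, filled circles heart 1 and open squares heart 2. The leading region is the same by colour for Cacna1c, Cacnb2 and Atp2b4 and changes for Slc8a1. Start 2 of Slc8a1 lies inside its large coding exon.

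The short exons of Slc8a1 are shown because 3 of them vary between the 5 full-length forms. The 18-nt exon between them is in all 5.
Slc8a1 21-nt upstream exon, chr17:81442203-81442223, minus strand: ccctgttgttgaatgagcttg
Slc8a1 21-nt downstream exon, chr17:81441861-81441881, minus strand: gtgggttgtcaaatgtcttat
Slc8a1 18-nt exon, chr17:81441773-81441790, minus strand: gtggcttcacattaacag
Slc8a1 15-nt exon, chr17:81441652-81441666, minus strand: gaaaagagatgtatg

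The upstream 21-nt exon was in 81.9% of full-length coding TPM in heart 1 and 81.3% in heart 2, and in 76.8% ± 0.56 in the second quantification. The downstream 21-nt exon, carried by Slc8a1-203 alone, was in 0.382% and 0%. The 15-nt exon was in 82.2% and 81.3%. These exon shares moved by few points between quantifications, unlike the start shares. Slc8a1-204 is the only full-length form without the 15-nt exon, and neither 21-nt exon is in it. The share with the 15-nt exon is therefore set by the amount given to Slc8a1-204 as a whole, not by reads on that exon. Closeness between quantifications does not by itself show stable inclusion.

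Bases upstream of the Slc8a1 start are shown for their GATA matches, with capitals as above.
Slc8a1 upstream start, chr17:81738388-81738637, minus strand: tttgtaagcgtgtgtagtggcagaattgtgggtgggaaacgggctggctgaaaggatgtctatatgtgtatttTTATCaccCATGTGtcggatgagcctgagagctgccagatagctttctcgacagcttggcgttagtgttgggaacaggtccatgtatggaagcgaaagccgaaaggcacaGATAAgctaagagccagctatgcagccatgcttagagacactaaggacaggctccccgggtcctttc

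That window was 50.7% G and C with a CpG ratio of 0.48. It held 2 matches to GATAA and 1 E-box, and no GC box or TATA box.

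Of the pumps, Atp2b1 has 1 full-length coding transcript, Atp2b1-201, with 38.1% ± 2.30 of TPM and 75.6% of counts. The rest lay mainly on the short coding fragments Atp2b1-208, Atp2b1-209 and Atp2b1-207, with 20.2%, 15.5% and 11.4% of TPM. The second quantification gave Atp2b1-201 35.7%. Atp2b4 was led by Atp2b4-207, with 48.2% and 49.6% of TPM and 45.4% in the second quantification. The non-coding Atp2b4-204, of 588 nt, held 22.8% of TPM and 1.85% of counts. Atp2b4-203 held 14.6% and Atp2b4-206 10.8%.

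Atp2b4-203 differs by a 181-nt exon near the end of the coding sequence, a length that is not a multiple of 3, and its coding sequence is 3516 nt against 3615 nt for Atp2b4-207. Exons at this place are known to give calcium pumps a shorter or longer C-terminal tail. The exon was in 19.7% of the relevant full-length coding TPM in each heart. The downstream start region of Atp2b4 held 85.2% and 86.1% of full-length coding TPM, and 83.3% and 83.1% in the second quantification.

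Across the 9 genes, the same transcript led by TPM in both hearts for 8, and by mean share in both quantifications for 5 (Cacna1c, Cacna1d, Cacnb2, Atp2b1 and Atp2b4). The leader was full-length coding in 7, the exceptions being Cacna1c and Cacna1d.

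Relatives of these genes were mostly low. Of 6 other pore subunits only Cacna1a, the P/Q-type pore, was expressed, at 4.86 and 2.76 TPM, and Cacna1f, a pore of the retina, was listed at 0. Cacnb3 (7.35 ± 1.22) and Cacnb1 (3.56 ± 0.57) accompanied Cacnb2, so 2 of 3 other beta subunits were expressed. Cacna2d2 (8.63 and 8.89 TPM) was the only 1 of 3 other alpha2delta subunits expressed. Of 8 gamma subunits, Cacng6 (2.73 and 3.79 TPM) and Cacng7 (3.02 and 2.91 TPM) were. Each of Cacnb2 and Cacna2d1 exceeded every other gene of its family in both hearts.

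**Figure D5:**
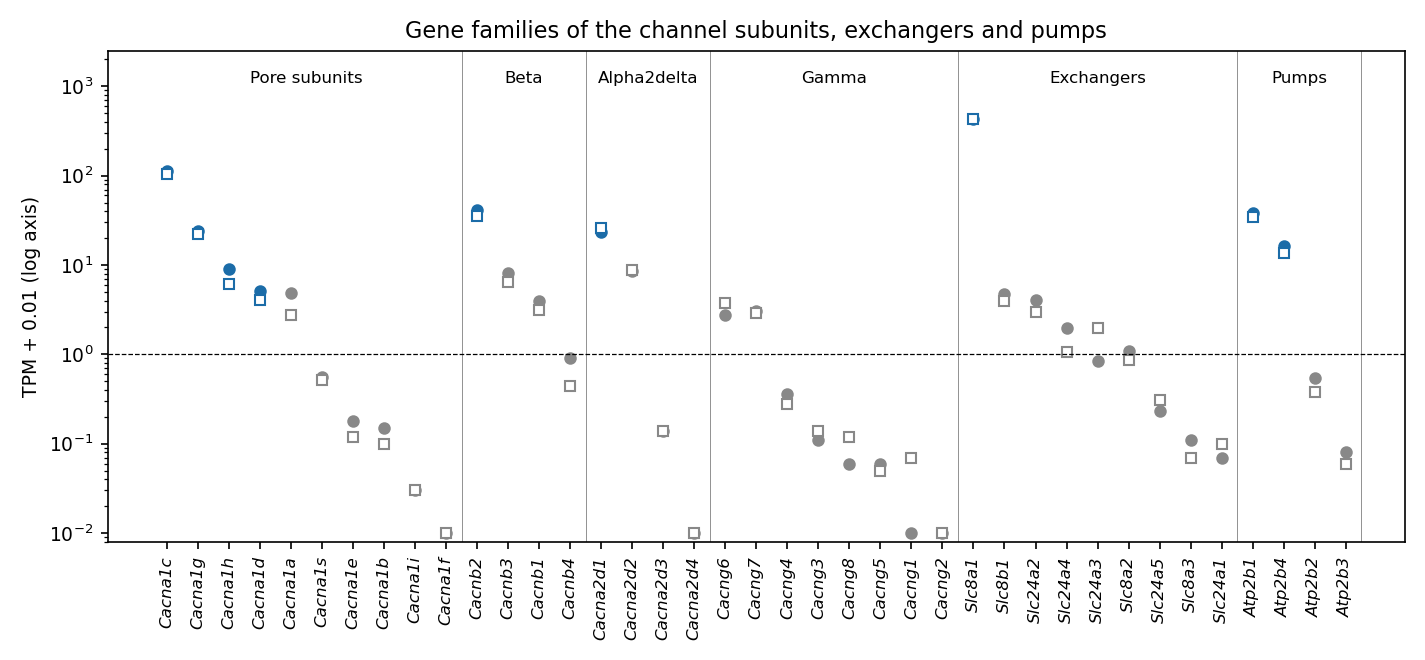
TPM plus 0.01, on a log axis, of the channel subunits, exchangers and pumps, grouped by family. Blue marks are the 9 genes and grey marks their relatives, filled circles are heart 1 and open squares heart 2, and the dashed line is a TPM of 1. In each family with a blue mark, the highest gene is blue.

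Of 8 other exchangers, 3 were expressed. Slc8b1, which works in mitochondria, had 4.71 and 3.91 TPM, Slc24a2 had 4.10 and 2.96, and Slc24a4 1.94 and 1.04. Slc24a3 had 0.84 TPM in heart 1 and 1.94 in heart 2. The other pump genes Atp2b2 and Atp2b3 were not expressed, while Bsg and Nptn, whose proteins are partners of the pumps, were at 399.6 and 84.4 mean TPM. Both Bsg and Nptn have other partners too.

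Of 14 regulators of the L-type channel or the exchanger, 10 were expressed. Rrad, a small GTPase that restrains L-type channels, had 100.68 and 115.05 TPM, close to Cacna1c, and its relative Rem1 had a mean of 5.92. Gem, of the same family, had 1.58 TPM in heart 1 and 4.62 in heart 2. Fxyd1 (phospholemman), which acts on the sodium pump and the exchanger, had 337.25 and 305.67. The kinase subunits Prkaca and Prkar1a had means of 169 and 254, the anchors Akap7 and Akap5 20.5 and 1.43, Ahnak 138 and Sri (sorcin) 60.5. Stac3, an adaptor of the skeletal muscle channel, had 2.05 TPM in heart 1 and 0.74 in heart 2.

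Of 11 genes for other calcium entry, 9 were expressed, all but Trpc4 and Trpc6. The store sensors Stim1 and Stim2 had means of 9.79 and 9.94 TPM, and the pores Orai1, Orai3 and Orai2 had 9.13, 6.79 and 1.29. Trpm7 (28.9), Piezo1 (24.2) and Trpm4 (18.39 and 11.01 in the 2 hearts) were higher than Trpc1 (3.68). All were below Cacna1c. On the sarcoplasmic reticulum side, Ryr2, the calcium release channel, had a mean of 338.3 TPM, Casq2 398.1, Pln 1499 and Atp2a2, the reuptake pump, 2374, and Slc8a1 exceeded Ryr2 in both hearts while Cacna1c was below it in both.

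Between the hearts, none of the 9 genes differed by over 2-fold, against 3.06% of 16271 genes that passed edgeR's filter on low counts. That background is made up of 0.842% higher and 2.22% lower in heart 2. The median log2 ratio of heart 2 over heart 1 was 0.07 over the 9 genes and -0.00332 over all filtered genes, on counts scaled by TMM. Cacna2d1 (0.25) and Slc8a1 (0.18) were the highest, and Cacna1c (0.07), Cacna1d (0.08), Cacna1g (0.05), Cacnb2 (0.06) and Atp2b1 (0.08) lay close together. Atp2b4 was at -0.05, a direction that turned to 0.00128 under scaling by spike-ins. Under scaling by total counts, Cacna1g turned to -0.02 and Cacnb2 to -0.01. The common coefficient of variation over all filtered genes was 15.2%.

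Cacna1h stood apart, with a log2 ratio of -0.47. Its CPM, the counts scaled to the library's total, was 40.0 in heart 1 (exact 95% interval 37.9 to 42.3) and 27.7 in heart 2 (26.0 to 29.4), intervals that cover counting error only and do not overlap. Its change exceeded that of 93.7% of the 7665 genes that averaged 500 counts or more, whereas Cacna1c exceeded 26.5% and Slc8a1 61.1%. The ratio was between -0.53 and -0.41 under the other scalings and the second quantification. Red cell, fibroblast and smooth muscle markers were higher in heart 2 and cardiomyocyte markers lower, as given above, and their part in this difference was not tested.

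The share of counts on protein-coding transcripts was higher in heart 2 for all 8 of the genes that have both kinds of transcript, against 65.0% of 9177 genes. By TPM it was higher in heart 2 for 7 of these 8, while that of Cacna1h was 77.0% in heart 1 and 66.1% in heart 2. The matching share over all genes was not computed by TPM, and Cacna1c moved only from 38.4% to 38.6%, so no result is read from that number. On counts, the median difference was 1.39 percentage points for the 8 genes and 0.709 for the 9177. The largest were in Cacna1d, from 61.9% to 71.0%, and Cacnb2, from 62.2% to 70.4%, and the smallest was in Atp2b4, from 97.9% to 98.3%. Slc8a1 has no transcript of another type.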

How the data were processed

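Total RNA libraries of 2 mouse hearts formed 1 group. Expected counts and TPM were read from deposited tables of genes and transcripts whose columns, per the file headers, follow RSEM's naming, and which add a posterior mean TPM and bounds of unstated level. A second deposited transcript table holds estimated counts and TPM named as kallisto writes them. Deposited notes give mm10 and GENCODE M21, and versions of the tools are not given in the sources used here. In the authors' files, effective length was the length less 99 nt in the first tables and less 342 and 352 nt in the second, and the effect on short transcripts was not tested.

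Symbols were matched to 9 gene identifiers. Members and lists were chosen with earlier results of these data known, and 1 list gene is not reported here. Named were all members, list genes averaging a TPM of 1 or more, and transcripts that led or held at least 10% of TPM. Rows that name no gene held 2 and 4 counts (6.31e-06% and 1.11e-05%), and these and spike-ins were left out of library sizes.

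Expected counts were rounded and scaled by TMM in edgeR 4.0.16 (R 4.3.3) after filtering with filterByExpr. Log ratios used a prior count of 2, and the step was tested on simulated data. DESeq2 1.42.0 size factors were an alternative. Shares of transcripts were computed as percent of TPM or counts from the deposited values with pandas 2.3.3 and Python 3.11.15. No test across samples was run.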

Additional observations from a re-analysis of the deposited data

How the results depend on the processing

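All 9 genes stayed expressed under every alternative but 1, a TPM threshold of 5, which kept 8. No partner ratio changed sign under any alternative. The summed TPM, 685.3, became 921.9 in the second quantification, 1324 when TPM was rescaled over protein-coding genes and 449.1 over full-length coding transcripts, an alternative chosen after seeing the data. In the second quantification the log2 ratio was 4.30 for Cacna1c over Cacna1d, 1.07 for Cacna1c over Cacnb2, -1.88 for Cacna2d1 over Cacna1c, 2.30 for Slc8a1 over Cacna1c and 1.41 for Atp2b1 over Atp2b4. A pseudocount of 1 gave 4.31 for Cacna1c over Cacna1d. Over full-length coding transcripts the ratios were 1.03 for Cacna1c over Cacnb2, -1.04 for Cacna2d1 over Cacna1c, 2.94 for Slc8a1 over Cacna1c, 4.53 for Slc8a1 over Atp2b1 and 0.30 for Atp2b1 over Atp2b4. The median share of TPM on the leading transcript, 42.7%, was 35.2% in the second quantification and 54.0% by expected counts. Without the filter on low counts, 2584 genes in place of 498 differed by over 2-fold between hearts, since more genes of low count were kept. No member did. Levels, partner ratios and shares were held against the SD over the 2 hearts, ratios between the hearts against the common coefficient of variation, and counts against a factor of 1.5. By these limits 57 values for the main comparisons and 125 for single genes stayed within, and 17 and 55 moved past them. A level, partner ratio or single-gene share with 1 heart left out is the value of the other heart. With 2 hearts it lies within that SD of their mean by arithmetic, so such values could not move and do not show stability. Every log2 ratio between the hearts also stayed within its limit of 0.204, and rescaling shifts all genes by nearly the same amount. The totals that stayed within are made up largely of these 2 kinds for single genes and are not a measure of stability. Over full-length coding transcripts the order of levels changed, with Cacna2d1 above Atp2b1. The cause of the shifts between quantifications was not tested. Low counts limit Cacna1d most. No paired analysis was possible because there is 1 group, and a ratio between the hearts cannot be formed without either of them.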
